A study of Homo sapiens with 6 samples.

Results

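Keratin genes that mark the basal layer of stratified epithelium, or that are induced there by wounding and stress, were followed through sorted cells of 2 human breast cancer lines. The members were taken by symbol through the Entrez Gene ID: the type I keratins KRT14 (Entrez Gene 3861), KRT16 (3868) and KRT17 (3872), which lie on chromosome 17, and the type II keratins KRT5 (3852), KRT6A (3853), KRT6B (3854) and KRT6C (286887), which lie on chromosome 12. All 7 had a row among the 18795 genes. Testing asked for a mean of 1 FPKM or more across libraries, which 6 of them had and KRT6C did not. FPKM scales the fragments of a gene by its length and by the size of the library, so levels of different genes can be set side by side.

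The lines were HCC70 and MDA-MB-468, both of the basal-like type and both untreated. HCC70 grew in RPMI and MDA-MB-468 in Leibovitz L15 with antibiotics, each with serum, so line and medium cannot be told apart. Cells were detached with trypsin-EDTA, fixed and permeabilized in methanol, stained, and sorted into 3 populations: K18+ (keratin 18 positive), K18+K14+ (also positive for keratin 14) and K18+Vim+ (also positive for vimentin). All groups therefore share the fixation, the staining and keratin 18. There was 1 library per line and population, 6 in all, so n = 2 per population and the 2 lines are the only replicates. The p-values measure how far the lines differ in a population difference, and not the spread between cultures.

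Keratins build the intermediate filaments of epithelial cells. Each filament unit pairs a type I with a type II chain, and cells tend to express the partners together. KRT5 and KRT14 are the pair of proliferating basal cells in epidermis and of the basal, myoepithelial layer of the mammary gland. KRT6A, KRT6B, KRT16 and KRT17 are low in resting interfollicular epidermis and are switched on at wound edges, in psoriasis and in hyperproliferation. KRT5, KRT14 and KRT17 are used in pathology to recognise basal-like breast cancer.

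The copies within each type are so alike that short reads can be hard to assign, and the sequences below show how far this goes. The coding sequences of KRT6A, KRT6B and KRT6C, taken from GENCODE 29 transcripts, are each 1695 bases long. KRT6A was 97.5% identical to KRT6B and 97.9% to KRT6C, and KRT6B was 98.5% identical to KRT6C. The 60 bases of the coding sequence in which the 3 differ most, from coding base 663 to 722, hold 9 of their 52 variable positions, printed as capitals:
KRT6A: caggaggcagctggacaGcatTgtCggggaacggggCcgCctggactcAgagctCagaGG
KRT6B: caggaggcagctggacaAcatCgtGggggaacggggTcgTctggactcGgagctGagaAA
KRT6C: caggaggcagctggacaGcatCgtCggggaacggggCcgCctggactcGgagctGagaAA

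Elsewhere KRT6A and KRT6C share a run of 349 identical bases, and KRT6A and KRT6B one of 269. How reads were assigned to genes was not given in the sources used here, so the split of reads between these 3 genes is uncertain. Of the type I genes, KRT14 was 85.2% identical to KRT16 and 78% to KRT17, and shared a run of 158 bases with KRT16. The first 60 bases of that run are printed next with the matching stretch of KRT17, with the 10 positions at which KRT17 differs in capitals:
KRT14: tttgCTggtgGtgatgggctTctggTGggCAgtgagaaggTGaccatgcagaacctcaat
KRT16: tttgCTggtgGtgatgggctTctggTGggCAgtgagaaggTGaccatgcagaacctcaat
KRT17: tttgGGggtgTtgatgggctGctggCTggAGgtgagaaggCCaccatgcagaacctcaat

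RefSeq also names 6 pseudogenes of KRT16 and 8 of KRT17, and reads from those copies could not be separated here. KRT5 is the most distinct member of its type, at 78% to 78.1% identity with the KRT6 genes. Its promoter was the 1 of the 7 found in the RefSeq promoter table, and the 250 bases before its start (GRCh38.p14, chr12:52520395-52520644, minus strand) are printed because KRT5 differed least between the K18+ and K18+K14+ libraries:
KRT5 promoter: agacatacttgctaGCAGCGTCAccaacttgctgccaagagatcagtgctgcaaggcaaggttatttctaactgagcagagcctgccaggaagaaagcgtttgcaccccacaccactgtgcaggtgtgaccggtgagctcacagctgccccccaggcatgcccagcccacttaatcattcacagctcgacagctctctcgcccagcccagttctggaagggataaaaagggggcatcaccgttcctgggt

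Capitals mark the 1 match, on either strand, to the antioxidant response element TGANNNNGC, which starts 236 bases before the transcription start. That motif was found in 35.2% of the 35116 promoters of this length. There was no match to TATAAA (10.7% of promoters), to the AP-1 motif TGANTCA (6.57%) or to the AP-2 motif GCCNNNGGC (19.8%).

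The epithelial label was checked against marker genes fixed for the purpose. KRT7 and KRT19, keratins of simple epithelium, and EPCAM, an epithelial adhesion molecule, were listed at 41.7 FPKM or more in 5 libraries. In the library labelled K18+Vim+ of MDA-MB-468 they lay between 8.41 and 83.3 FPKM. They come from a list of 10 luminal markers, of which 8 or 9 were above 1 FPKM in each library. ELF5 of that list was at most 0.976 FPKM, and KIT was at the floor in MDA-MB-468 K18+ and K18+K14+. PECAM1, which defines endothelium, was at the floor of 0.1 FPKM in all 6. PTPRC, which defines leukocytes, was at most 1.41 FPKM, and the 8 immune markers summed to between 5.67 and 146 FPKM. In every library but that labelled K18+Vim+ of MDA-MB-468, most of that sum was CD14, a co-receptor for lipopolysaccharide best known from monocytes. It stood at 90.0, 138 and 51.4 FPKM in HCC70 K18+, K18+K14+ and K18+Vim+ and at 28.3, 50.7 and 2.44 FPKM in MDA-MB-468. CD14 was thus highest in K18+K14+ in both lines, like KRT14, and its part in the keratin results was not tested. VIM, the gene of the third sort antigen, stood at 54.8 FPKM in HCC70 K18+Vim+ against 13.4 FPKM in HCC70 K18+, and at 259 against 12.2 FPKM under the MDA-MB-468 labels. TP63, the master transcription factor of basal cells, lay between 0.13 and 0.562 FPKM in 5 libraries and at 3.69 FPKM in MDA-MB-468 K18+K14+. The library labelled K18+Vim+ of MDA-MB-468 differed from the other libraries of its line in genes the line is known by. SMAD4, which MDA-MB-468 has lost, was listed at 5.19 FPKM in it against 0.566 FPKM in the K18+ library. EGFR, which the line has amplified, was at 10.4 against 153 FPKM. RB1 stood at 6.68 FPKM in it, against 0.307 FPKM in MDA-MB-468 K18+ and 2.24 FPKM in HCC70 K18+. In some other genes it kept the difference between the lines. PKP1 was at the floor as in the other MDA-MB-468 libraries, and S100A7 stood at 90.9 FPKM against at most 2.79 FPKM in HCC70. FABP5 departed from the other libraries of its line, at 37.0 FPKM against 0.39 FPKM in MDA-MB-468 K18+ and 116 FPKM in HCC70 K18+Vim+. The fitted keratin differences between populations that use this library are given with and without it, as are the counts between the lines.

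KRT14, the gene of the sorted antigen, stood at 15.3 FPKM in HCC70 K18+ and at 48.6 FPKM in HCC70 K18+K14+. The MDA-MB-468 values were 47.8 FPKM in K18+ and 279 FPKM in K18+K14+. It was thus higher in the cells sorted for its protein, 3.18-fold in HCC70 and 5.84-fold in MDA-MB-468, although the HCC70 K18+K14+ library lay only just above the MDA-MB-468 K18+ library. In these bulk samples, more positive cells and more transcript per cell cannot be told apart.

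KRT16, a stress keratin, stood at 165 FPKM in HCC70 K18+ and 447 FPKM in HCC70 K18+K14+, and at 49.8 and 160 FPKM in the same populations of MDA-MB-468. KRT17, which is expressed in hair follicle and activated keratinocytes, had 38.0 and 92.7 FPKM in those HCC70 libraries and 219 and 677 FPKM in the MDA-MB-468 ones. Both had higher values in K18+K14+ within each line, by 2.44-fold to 3.22-fold. Across the lines their populations overlapped, since each line had its own level of the 2 genes.

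Of the type II members, KRT6B stood at 14.5 FPKM in HCC70 K18+ and 39.2 FPKM in HCC70 K18+K14+, and at 2.89 and 19.6 FPKM in MDA-MB-468. Its MDA-MB-468 ratio of 6.78 exceeded that of KRT14. KRT6A was low in both lines, with 2.37 and 6.07 FPKM in the HCC70 pair and 0.596 and 1.51 FPKM in the MDA-MB-468 pair. KRT5, the usual filament partner of KRT14, differed least. It had 221 FPKM in K18+ and 308 FPKM in K18+K14+ of HCC70 and 263 and 308 FPKM in MDA-MB-468, ratios of 1.4 and 1.17. KRT5 was already among the most abundant genes of the K18+ libraries, above 97.1% of the genes tested in HCC70 and 97.6% in MDA-MB-468, where KRT14 was above 56.6% and 83.2%. KRT6C was listed between 0.15 and 0.271 FPKM in HCC70 and at the floor in all 3 MDA-MB-468 libraries, and is not compared further.

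**Figure D1:**
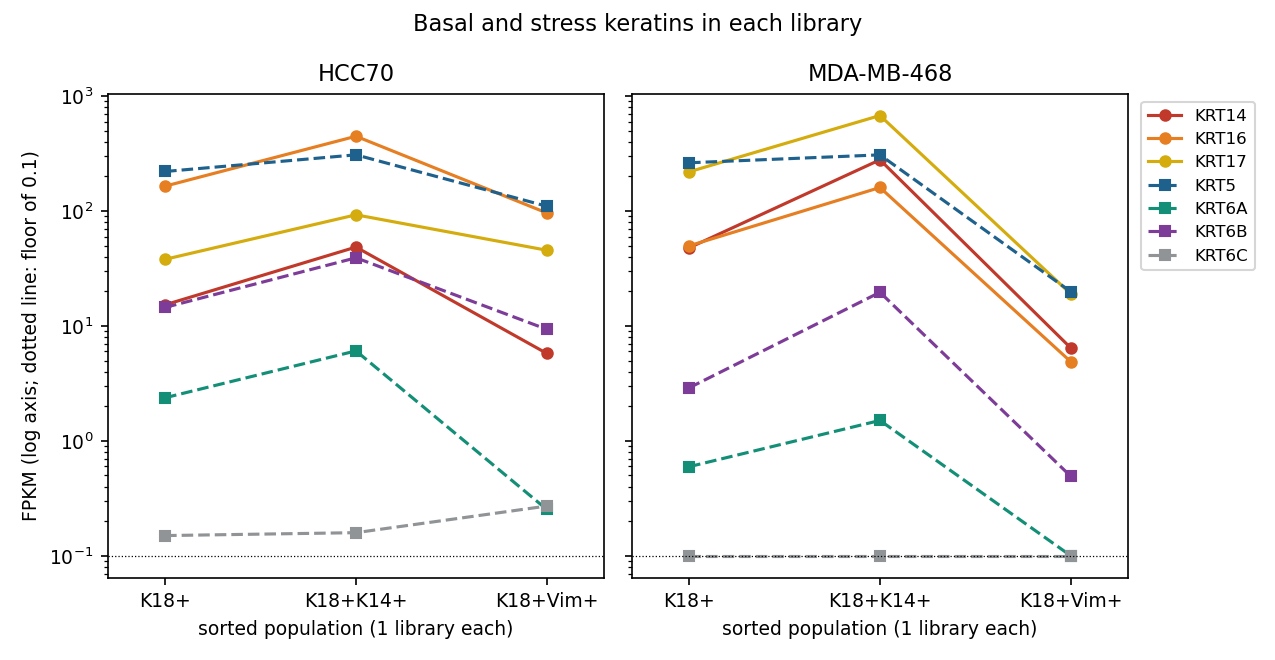
FPKM of the 7 keratins (log vertical axis) in each population of HCC70 (left) and MDA-MB-468 (right); each point is 1 library, the lines only join the points of a gene, circles are type I and squares type II keratins, and the dotted line is the floor of 0.1 FPKM. KRT14, KRT16, KRT17, KRT5, KRT6A and KRT6B peak in K18+K14+ in both lines. Of these, KRT5 has the smallest ratio to K18+, moving from 221 to 308 and from 263 to 308 FPKM.

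All 6 tested keratins had higher values in K18+K14+ than in K18+ in both lines, against 20.2% of the 12454 genes tested. In FPKM, 5 of them were at least 2-fold higher in both lines, KRT5 being the exception, against 0.699% of genes. For KRT14, KRT5 and KRT6B both K18+K14+ libraries lay above both K18+ libraries, as they did for 6.6% of genes. On the scale of log2(FPKM + 1), the members had a median ratio of 1.32 within HCC70 and 1.65 within MDA-MB-468, beside medians of -0.15 and -0.17 over all genes tested. The median of 2924 genes whose longest coding transcript is of similar length, 1500 to 2600 bases, was -0.06 and 0.07. The list includes KRT14, the antigen of the sort itself. The MDA-MB-468 K18+K14+ library also had 36.3% of its FPKM in its 100 highest genes, against 25% in MDA-MB-468 K18+, and a median of 8.12 against 10.6 FPKM over the genes tested. In HCC70 these were 23.5% against 22.5% and 9.99 against 11.8 FPKM, and the part of this in the ratios was not tested.

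None of these differences passed the test across all genes. The fitted log2 differences, K18+K14+ minus K18+, were 2.06 ± 0.60 (SE, n = 2 per population) for KRT14, 1.89 ± 0.51 for KRT6B, 1.55 ± 0.68 for KRT16 and 1.44 ± 0.97 for KRT17. KRT6A was at 0.86 ± 0.49 and KRT5 at 0.35 ± 0.70. Leaving out 1 library at a time moved the difference of KRT14 between 1.24 and 2.88, that of KRT16 between 0.85 and 2.25, that of KRT17 between 0.33 and 2.55 and that of KRT5 between -0.37 and 1.08. With limma the adjusted p was 0.855 for each of them but KRT5, where it was 0.93. Of all genes 0% were called, and 3.44% had an unadjusted p under 0.05, among them KRT14 (0.0119) and KRT6B (0.00868). Without both K18+Vim+ libraries the fitted differences were the same and the SE of KRT14 was 0.38, with a limma adjusted p of 0.388 and again 0 genes called. 

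**Figure D2:**
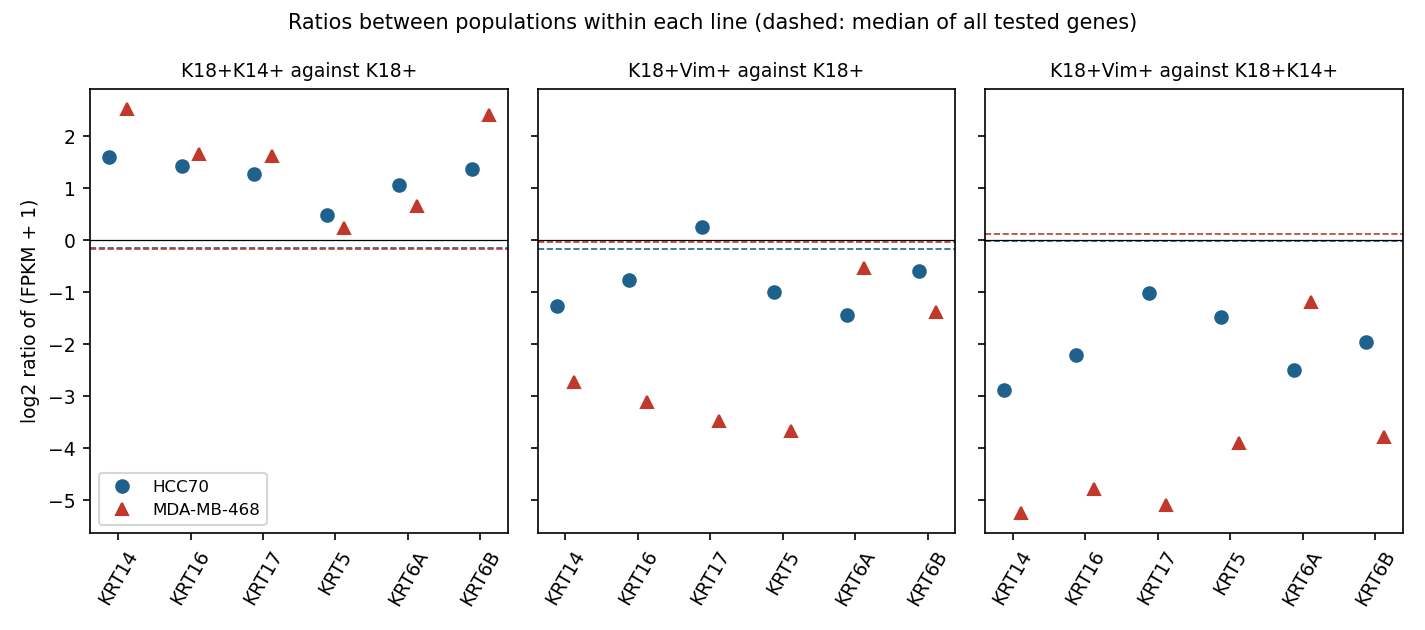
Log2 ratio of FPKM + 1 between 2 populations (vertical axis) for the 6 tested keratins, with HCC70 as circles and MDA-MB-468 as triangles, 1 ratio per line; the dashed lines are the medians of all 12454 genes tested. In K18+K14+ against K18+ every point lies above 0, and in K18+Vim+ against K18+K14+ every point lies at or below -1.008.

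The type I sum differed more between the populations than the type II sum. In HCC70 the type I members KRT14, KRT16 and KRT17 summed to 218 FPKM in K18+ and 588 FPKM in K18+K14+, and the type II members to 238 and 354 FPKM. The MDA-MB-468 sums were 317 and 1116 FPKM for type I and 266 and 329 FPKM for type II. Most of the type II sum was KRT5, at 308 FPKM in both K18+K14+ libraries. In HCC70 and MDA-MB-468, KRT6B was 2.7-fold and 6.78-fold higher in K18+K14+. KRT6A was 2.56-fold and 2.53-fold higher, and the type I members 2.44-fold to 5.84-fold. The ratio of type II to type I members went from 1.09 to 0.601 in HCC70 and from 0.841 to 0.295 in MDA-MB-468. It was also below that of K18+ in the K18+Vim+ libraries, at 0.813 in HCC70 and 0.679 under the MDA-MB-468 label. From K18+ to K18+K14+ the ratio of KRT5 to KRT14 alone went from 14.5 to 6.35 and from 5.5 to 1.1. These ratios are of single libraries and were not tested.

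Over all 54 keratin rows the ratio of type II to type I was steadier between K18+ and K18+K14+. It stood at 1.30 in K18+ and 1.39 in K18+K14+ in HCC70, and at 1.10 and 1.08 in MDA-MB-468. The keratins of simple epithelium that carry most of that sum had ratios below those of KRT14, KRT16, KRT17, KRT6A and KRT6B in both lines. In MDA-MB-468 their ratios were above that of KRT5, and that of KRT7 was so in HCC70 as well. For KRT7, the most abundant, K18+K14+ was 1.7 times K18+ in HCC70 and 1.76 times in MDA-MB-468. The same ratios were 1.28 and 1.5 for KRT19, 1.21 and 1.77 for KRT8, and 1.1 and 1.23 for KRT18. For KRT15, a basal type I keratin outside the 7, they were 1.67 and 1.95. Of the other keratins listed and tested, 3 of 5 type I and 3 of 4 type II were higher in both lines. The share of all genes was 20.2%. The 7 basal and stress keratins made up 15.6% of all keratin FPKM in HCC70 K18+ and 20.5% in HCC70 K18+K14+. In MDA-MB-468 these shares were 12.8% and 18.2%.

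Cells sorted for vimentin had the lowest values of the basal and stress keratins, with KRT17 in HCC70 and KRT6C as exceptions. In HCC70 K18+Vim+, KRT14 stood at 5.76 FPKM, KRT5 at 110 FPKM and KRT16 at 96.1 FPKM, which is 2.65-fold, 2.01-fold and 1.71-fold below K18+. KRT6A was listed at 0.253 FPKM against 2.37 FPKM in K18+, and KRT6B at 9.34 against 14.5 FPKM. KRT17 went the other way, at 45.6 against 38.0 FPKM. The simple-epithelium keratins KRT8 and KRT18 were not lower in this library, at 212 against 140 FPKM and 216 against 158 FPKM. The share of the 7 basal and stress keratins in all keratin FPKM was 7.56% there, against 15.6% in HCC70 K18+.

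In the library labelled K18+Vim+ of MDA-MB-468 the keratins named here were lower, basal or not, apart from KRT6C, which was at the floor in all 3 MDA-MB-468 libraries. KRT14 stood at 6.42 FPKM, KRT5 at 19.9 FPKM, KRT16 at 4.88 FPKM, KRT17 at 19.0 FPKM and KRT6B at 0.491 FPKM, and KRT6A was at the floor. Against the MDA-MB-468 K18+ library KRT14 was 7.44-fold lower, KRT6B 5.89-fold and KRT5 13.2-fold. KRT18 was 6.86-fold lower, KRT7 18.3-fold and KRT15, a further basal type I keratin, 22.2-fold. The share of the 7 genes in all keratin FPKM, 14%, lay between those of the other MDA-MB-468 libraries. In HCC70 the basal keratins were thus lower also as a share of keratin, and here they were not. The difference between the lines was not tested, and neither was the part in it of what sets this library apart.

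For 5 of the 6 keratins K18+Vim+ was below K18+ in both lines, against 33.9% of genes, with KRT17 as the exception. KRT14, KRT5 and KRT6A were at least 2-fold lower in both lines, against 1.94% of genes, and for the same 3 both K18+Vim+ libraries lay below both K18+ libraries, against 15.6%. The fitted differences, K18+Vim+ minus K18+, ranged from -2.33 ± 0.70 for KRT5 to -0.98 for KRT6A and KRT6B. With limma each adjusted p was 0.863 and 0% of genes were called, while 4.27% had an unadjusted p under 0.05. Without the library labelled K18+Vim+ of MDA-MB-468 the difference of KRT17 was 0.35 in place of -1.60. KRT5 was at -1.06 in place of -2.33, KRT14 at -1.04 in place of -1.99 and KRT16 at -0.71 in place of -1.94. KRT6B was at -0.32 in place of -0.98. KRT6A was lower still, at -1.53 in place of -0.98. Without the HCC70 K18+Vim+ library, limma called 7.7% of genes lower, KRT14, KRT5, KRT16 and KRT17 among them. The population was then 1 library, that labelled MDA-MB-468, assumed to vary like the K18+ and K18+K14+ libraries, from which the spread came.

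The widest gap was between the 2 sorted populations that carry a further antigen. All 6 keratins were at least 2-fold lower in K18+Vim+ than in K18+K14+ in both lines, against 1.85% of genes. For all 6 the libraries of the populations did not overlap, against 9.7%. The 6 include KRT14, and the K18+K14+ cells were sorted for its protein, so its gap is not independent of the sort. In HCC70 alone KRT14 was 8.43-fold lower, KRT16 4.65-fold, KRT6B 4.19-fold, KRT5 2.80-fold and KRT17 2.03-fold. KRT6A was 24.0-fold lower, at 0.253 FPKM, near the floor. The fitted difference, K18+Vim+ minus K18+K14+, was -4.06 ± 0.60 for KRT14 (limma adjusted p = 0.547) and -2.87 ± 0.51 for KRT6B (0.635), and the other 4 had an adjusted p of 0.682. Here too 0% of genes were called, and 5.46% had an unadjusted p under 0.05, with all 6 keratins among them. Without the library labelled K18+Vim+ of MDA-MB-468 the difference of KRT14 was -3.10 and that of KRT6B -2.22. KRT16 was at -2.26 in place of -3.49, KRT5 at -1.42 in place of -2.68 and KRT17 at -1.10 in place of -3.05. KRT6A was lower, at -2.39 in place of -1.84. Without the HCC70 K18+Vim+ library limma called 8.57% of genes lower, among them all of the 6 but KRT6A, under the same assumption for 1 library. The 3 population comparisons share libraries, so they are not independent of each other.

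The lines differed in which stress keratin was the more abundant. HCC70 had 165, 447 and 96.1 FPKM of KRT16 in K18+, K18+K14+ and K18+Vim+ against 38.0, 92.7 and 45.6 FPKM of KRT17. MDA-MB-468 had 219, 677 and 19.0 FPKM of KRT17 against 49.8, 160 and 4.88 FPKM of KRT16. The ratio of KRT16 to KRT17 lay between 2.11 and 4.82 in the HCC70 libraries and between 0.227 and 0.257 in those labelled MDA-MB-468, the one labelled K18+Vim+ included. The 2 ranges did not overlap, and how many other pairs of genes part the lines in this way was not tested.

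**Figure D3:**
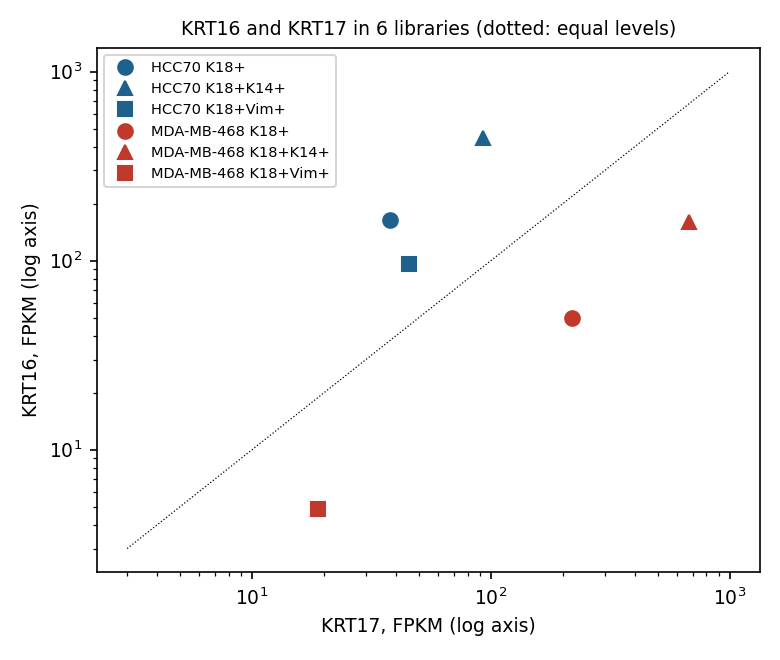
KRT16 against KRT17 in FPKM (both axes log) in the 6 libraries, with HCC70 in blue and MDA-MB-468 in red, symbols for the populations, and a dotted line of equal levels. The HCC70 libraries lie above the line, with ratios of KRT16 to KRT17 from 2.11 to 4.82, and the MDA-MB-468 libraries below it, from 0.227 to 0.257.

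Like KRT17, KRT14 was higher in MDA-MB-468, and like KRT16, KRT6A and KRT6B were higher in HCC70. In K18+ and K18+K14+, KRT14 was 3.13-fold and 5.74-fold higher in MDA-MB-468 than in HCC70, and KRT17 5.77-fold and 7.31-fold higher. In the same populations KRT16 was 3.3-fold and 2.79-fold higher in HCC70, KRT6A 3.98-fold and 4.03-fold, and KRT6B 5.01-fold and 2.0-fold. In both populations 11.4% of genes were at least 2-fold higher in MDA-MB-468 and 14.2% at least 2-fold lower, so gaps of this size between the lines were common. KRT5 had 221 and 263 FPKM in the K18+ libraries of the lines and 308 FPKM in both K18+K14+ libraries. KRT15, another keratin of basal cells, was also higher in MDA-MB-468, at 183 against 38.0 FPKM in K18+.

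In the fit of all 6 libraries, KRT16 was lower in MDA-MB-468 by a log2 difference of -2.41 ± 0.56 (limma adjusted p = 0.0417) and KRT6B by -1.92 ± 0.42 (0.0363), and the other 4 did not pass. Leaving out any 1 of the HCC70 K18+, HCC70 K18+K14+ or MDA-MB-468 K18+ libraries ended both calls, with adjusted p from 0.0529 to 0.17, and leaving out MDA-MB-468 K18+K14+ ended that of KRT16 (0.0595). In the fit of all 6, 7.68% of all genes were called lower and 4.54% higher. Without both K18+Vim+ libraries, 5 of the 6 passed. The differences were then 2.68 ± 0.40 for KRT17 (limma adjusted p = 0.00239), 2.04 ± 0.38 for KRT14 (0.006), -1.59 ± 0.40 for KRT16 (0.0211), -1.48 ± 0.37 for KRT6B (0.0209) and -1.29 ± 0.32 for KRT6A (0.0206). KRT5 differed by 0.12 ± 0.45 (0.862). In that fit 11.5% of genes were called higher and 15.5% lower, and 1 residual degree of freedom stood behind the calls. With no filter on low values 0 genes passed in the fit of all 6 libraries.

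**Figure D4:**
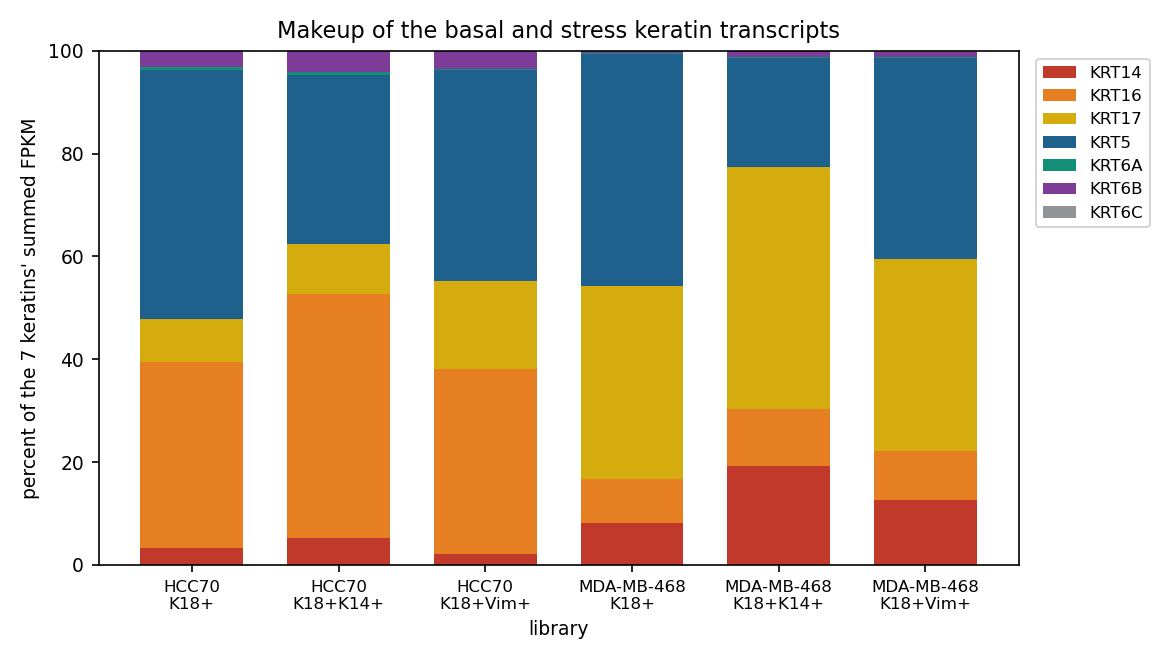
Share of each keratin in the summed FPKM of the 7 (vertical axis, percent) for each of the 6 libraries, stacked from KRT14 at the bottom. KRT16 takes 36% to 47.5% in the HCC70 libraries and 8.54% to 11.1% in the MDA-MB-468 libraries, and KRT17 8.34% to 17% and 37.3% to 46.9%.

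As shares of the 7 genes' summed FPKM, KRT5 was the largest in HCC70 K18+ with 48.5% and in MDA-MB-468 K18+ with 45.1%. In K18+K14+ the largest was KRT16 in HCC70, with 47.5%, and KRT17 in MDA-MB-468, with 46.9%. KRT14 took 3.35%, 5.16% and 2.16% in the K18+, K18+K14+ and K18+Vim+ libraries of HCC70, and 8.2%, 19.3% and 12.6% in those of MDA-MB-468. KRT14 was not the largest in any of the 6 libraries, those sorted for its protein included. The makeup of the library labelled K18+Vim+ of MDA-MB-468 lay in or near the range of the other MDA-MB-468 libraries for KRT16 (9.61%) and KRT17 (37.3%), at a summed level of 50.8 FPKM against 583 FPKM in MDA-MB-468 K18+.

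Across the 6 libraries the members grouped as they did between the lines. Pearson correlations of log2(FPKM + 1) were 0.972 for KRT16 with KRT6B and 0.94 for KRT14 with KRT17, against 0.447 for KRT16 with KRT17. Without the library labelled K18+Vim+ of MDA-MB-468 these were 0.976, 0.928 and -0.13. The libraries share lines and populations, so the values are descriptive. The genes most like each keratin by this measure over the 6 libraries were ZC3H18, SAA1 and MEF2B for KRT14 (0.986 to 0.994), IER5, TSPAN9 and CD82 for KRT5 (0.994 to 0.999), and LINC01588, IGFBP6 and WBP2 for KRT16 (0.991 to 0.993). For KRT17 they were GDPD5, TRPT1 and C21orf58 (0.994 to 0.995), for KRT6A RAB11FIP4, LPO and AGFG2 (0.958 to 0.996), and for KRT6B ZFYVE19, WBP2 and DNAJC17 (0.977 to 0.99). Of the 3 genes named for each keratin, 0 or 1 were named again without the library labelled K18+Vim+ of MDA-MB-468.

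Genes that act with these keratins moved in both directions. In K18+K14+ against K18+ no list had a member that passed limma. Genes of the hemidesmosome and basal layer anchor the keratin filaments of basal cells to the matrix. Of 16 tested, 5 had higher and 7 lower values in both lines, against 20.2% and 43.7% of all genes. The lower members were thus near the share of all genes. The median fitted log2 difference of this list was -0.05 beside -0.16 for all genes. ITGB1, the beta 1 integrin chain, had 49.9 FPKM in K18+K14+ and 120 FPKM in K18+ of HCC70, and 13.5 and 33.3 FPKM in MDA-MB-468, and ITGA6, the alpha 6 chain, had 2.76 and 5.23 and then 4.84 and 9.49 FPKM. TRIM29, a basal-type marker, had higher values in K18+K14+, with 14.3 against 9.5 and 156 against 86.3 FPKM. Of 15 linker and binding proteins 5 were higher and 4 lower in both lines. SFN, the 14-3-3 protein that binds keratin 17, stood at 196 against 130 and 673 against 170 FPKM, whereas DST, a plakin of the hemidesmosome, stood at 35.9 against 53.1 and 16.7 against 36.6 FPKM.

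Transcription factors that act on keratin promoters were mostly lower in K18+K14+. Of 24 tested, 15 had lower and 3 higher values in both lines, with a median of -0.50, against 43.7% of all genes lower and 20.2% higher in both lines. NFE2L2, the NRF2 factor, which can induce KRT6A, KRT16 and KRT17, had 40.0 FPKM in K18+K14+ and 70.4 FPKM in K18+ of HCC70, and 30.3 and 62.0 FPKM in MDA-MB-468. Of 11 NRF2 target genes 7 were lower and 1 higher in both lines, with a median of -0.57, for example TXNRD1 at 13.2 against 27.7 and 14 against 25.7 FPKM, and GCLC at 17.6 against 28.4 and 15.2 against 29.3 FPKM. KLF5 stood at 17.3 against 44.0 and 21.8 against 29.7 FPKM, and GRHL2 at 14.4 against 22.2 and 8.30 against 18.1 FPKM. Of 16 tested genes of wounding and hyperproliferation, the setting in which KRT6 and KRT16 are best known, 3 were higher and 3 lower in both lines. S100A7, also called psoriasin, had 2.79 FPKM in K18+K14+ and 1.44 FPKM in K18+ of HCC70, and 3093 and 1197 FPKM in MDA-MB-468, and LCN2, a secreted antibacterial protein, stood at 1138 against 708 and 330 against 196 FPKM.

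Between the lines many genes passed, and in the fit of all 6 libraries only the wounding list had called members in both directions. In the fit of all 6 libraries 7 of 16 hemidesmosome and basal layer genes were lower in MDA-MB-468 and 0 higher, against the 7.68% of genes called lower. Among them were the laminin chains LAMA3 and LAMB3, the integrin chain ITGB1, the cadherin CDH3 and the desmosomal cadherins DSG3 and DSC3. CDH3 stood at 80.6, 84.0 and 71.8 FPKM in HCC70 K18+, K18+K14+ and K18+Vim+ and at 9.57, 8.40 and 1.28 FPKM in MDA-MB-468. Of 15 linkers 2 were lower and 0 higher: PPL, which encodes periplakin, stood between 12.5 and 13.5 FPKM in HCC70 and at most at 0.301 FPKM in MDA-MB-468, and PKP1, which encodes plakophilin 1, between 11.7 and 13.5 FPKM against the floor. Of 24 transcription factors KLF4 and FOS were lower and 0 higher. Of 16 wounding genes 4 were lower (SERPINB3, SERPINB4, LCN2 and FABP5) and 2 higher (S100A7 and S100A8). Without the library labelled K18+Vim+ of MDA-MB-468, a setting added after the data were seen, limma called 15.4% of all genes lower and 11.5% higher. All of the list members above were called again in the same direction. Among the transcription factors KEAP1 was then also called higher, and RARA and GLI1 lower. The absence of higher calls among the transcription factors thus held only with that library. Among the wounding genes S100A7A and SPRR1B were then also called higher. The hemidesmosome and basal layer list then also had 4 higher members, ITGB4, COL7A1, TRIM29 and S100A2, beside the 7 lower ones, so the absence of higher calls in it held only with that library. The other keratins KRT15, KRT18, KRT23, KRT8 and KRT80 were also called higher in MDA-MB-468 in that fit, and in the fit of all 6 libraries 0 of the 9 tested were called.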

How the data were processed

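Sequencing libraries of 6 sorted populations were compared. The authors deposited FPKM per Entrez Gene ID. The submitters' processing notes name TopHat2 and the build GRCh37. Annotation and FPKM tool were not given in the sources used here. Depth of each library is unknown, which leaves counting error without an interval. A floor of 0.1 FPKM is visible. Of 18807 rows, 7 with a blank were left out, and 5 IDs had 2 rows, of which that of higher mean was used. Symbols came from RefSeq (18732 of 18795 IDs).

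The 12454 genes whose mean reached 1 FPKM were fitted as log2(FPKM + 1) with limma 3.58.1 in R 4.3.3 (eBayes, trend). Terms were population and line, 2 residual degrees of freedom remained, and p was adjusted by Benjamini-Hochberg per comparison, with a threshold of 0.05. The scale understates differences of low genes. The line is the block, since each line gave 1 library per population. Deviations from the population means correlated at 0.474 to 0.796 across genes within a line. Alternatives changed the block, libraries, pseudocount (0.1, 5), filter (none, 5 FPKM), normalization and trend. Named were the 7 keratins, the sort antigens, from each list up to 4 members that moved alike in the lines (K18+K14+ against K18+), ranked by the smaller of the absolute ratios, list members that passed, and 3 most alike genes per keratin. KRT15, EPCAM, ELF5, TP63, PECAM1, PTPRC, CD14, SMAD4, RB1 and EGFR, and genes called only without a library, were named outside this rule. Members and lists were chosen with earlier results of these data known. Python 3.11.15, pandas 2.3.3, numpy 2.4.6 and matplotlib 3.10.9 were used.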

Additional observations from a re-analysis of the deposited data

Results flagged for a closer look

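KRT17 in K18+Vim+ against K18+ cells moved in opposite directions in the 2 lines. Its log2 ratio was 0.256 in HCC70 (45.6 against 38.0 FPKM) and -3.46 in MDA-MB-468 (19.0 against 219 FPKM). The difference between the lines was not tested, since each line had 1 library per population. The second ratio rests on the library labelled K18+Vim+ of MDA-MB-468, in which KRT18 was also 6.86-fold below the MDA-MB-468 K18+ library, and the part of that in the result was not tested.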

How the results depend on the processing

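Of the alternatives, leaving out a library changed most. Genes called by limma ranged from 0 to 1 for K18+K14+ against K18+, from 0 to 1500 for K18+Vim+ against K18+ and from 0 to 1988 for K18+Vim+ against K18+K14+, both highest without the HCC70 K18+Vim+ library. Between the lines the count of 1522 ranged from 206 without HCC70 K18+ to 3360 without HCC70 K18+Vim+, and was 3366 without both K18+Vim+ libraries and 0 with no filter on low values. The cause was not tested. The log2 difference of KRT5 in K18+K14+ against K18+ ranged from -0.37 without HCC70 K18+ to 1.08 without MDA-MB-468 K18+, and was also below 0, at -0.19, without MDA-MB-468 K18+K14+. Between the lines that of KRT5 ranged from -1.21 to 0.12, the latter also without both K18+Vim+ libraries. The difference of KRT17 in K18+Vim+ against K18+ ranged from -3.55 to 0.35. Calls of KRT16 and KRT6B between the lines ended with no filter (limma adjusted p = 0.222 and 0.189), and that of KRT6B after quantile normalization (0.0504). No other alternative turned the direction of a difference of the 6 keratins. Without the replicate block, that is with no term for the line, 0 genes were called in each population comparison, as with it. KRT6A has no value at a minimum of 5 FPKM. Depth is unknown, so values near the floor, as for KRT6A and KRT6C, cannot be told from sampling noise.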
